A study of Mus musculus with 6 samples.

Results

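Listed peaks from an antibody against Quaking (Qk) proteins (anti-PanQk) were described on the transcripts of 7 proteins of the focal adhesion plaque. This plaque is the layer that joins integrins to actin. The members are Lpp, Zyx, Vcl, Tln1, Pxn, Ilk and Fermt2. The members were taken by Ensembl gene ID, and every peak listed under each ID was kept. These are 7 of the 8233 gene IDs found in either list. They account for 116 anti-PanQk peaks out of 22488, and for 27 anti-HA control peaks out of 8496. All 7 had an anti-PanQk peak, and Pxn (ENSMUSG00000029528) had no control peak. Lpp was chosen by its number of control-free anti-PanQk peaks, those that no control peak overlaps, and the other members were chosen as transcripts of the same structure with both lists already examined. All values below are therefore a description, with no test.

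The study used iCLIP, in which proteins are crosslinked to bound RNA with ultraviolet light and the RNA recovered with an antibody is sequenced. Both libraries used here came from proliferating C2C12 myoblasts, an immortalised mouse muscle precursor line, irradiated with 400 mJ. One was made with an antibody against the Qk proteins together (anti-PanQk, 1 library), and the other with an antibody against HA, a peptide tag (anti-HA control, 1 library). The remaining 4 of the 6 libraries (2 with anti-PanQk from myotubes differentiated for 72 h, and 1 each with anti-Qk6 and anti-Qk7 from myoblasts) were not analysed here. Neither group used here had a replicate, so every difference below is between 2 libraries and not between replicated conditions, and all intervals cover counting error only.

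Focal adhesions anchor cells to the matrix through integrins. Talin (Tln1) and kindlin (Fermt2) bind integrin tails and activate them, vinculin (Vcl) ties talin to actin, and integrin-linked kinase (Ilk) and paxillin (Pxn) are adaptors that recruit further partners. Zyxin (Zyx) and the lipoma-preferred partner Lpp belong to the same LIM protein family and act where adhesions meet actin bundles. In muscle, such plaques hold the sarcolemma to the matrix. Qk proteins are RNA-binding proteins of the STAR family that act in splicing, stability and translation, and they are known to prefer RNA with an ACUAA core. The sequence under the peaks was not analysed here, since the coordinates are those of the mm9 build, and no exon, intron or UTR was assigned.

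Sequencing depth is unknown for both libraries. Reads in listed peaks add up to 204258 in the anti-PanQk list and 156166 in the control list, and read numbers are given as listed, without scaling. Control-free here means that no control peak shares a base on the same strand. Over the whole anti-PanQk list 86.0% of peaks were control-free, and this share is the background for the member counts. The median peak held 4 reads in the anti-PanQk list and 15 in the control list.

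Lpp and Vcl carried most of the anti-PanQk signal. Together they held 92 of the 116 member peaks (79.3%) and 723 of the 824 reads in them (87.7%). Lpp, on the plus strand of chromosome 16, had 62 anti-PanQk peaks and 8 control peaks. Vcl, on the plus strand of chromosome 14, had 30 and 7. Tln1 had 10 and 6, Fermt2 6 and 1, Zyx 4 and 3, Ilk 2 and 2, and Pxn 2 and 0. The number of peaks spanned a wide range among the members. Lpp stood at rank 13 of the 7135 gene IDs in the anti-PanQk list by number of peaks and Vcl at rank 40. By contrast, 54.3% of IDs had at least as many peaks as Pxn or Ilk. The high rank of Lpp, and with it the width of the range, follows in large part from its choice by control-free peaks. The stretches that listed peaks cover also differed in length, from 2.53 kb in Ilk to 594 kb in Lpp.

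**Figure D1:**
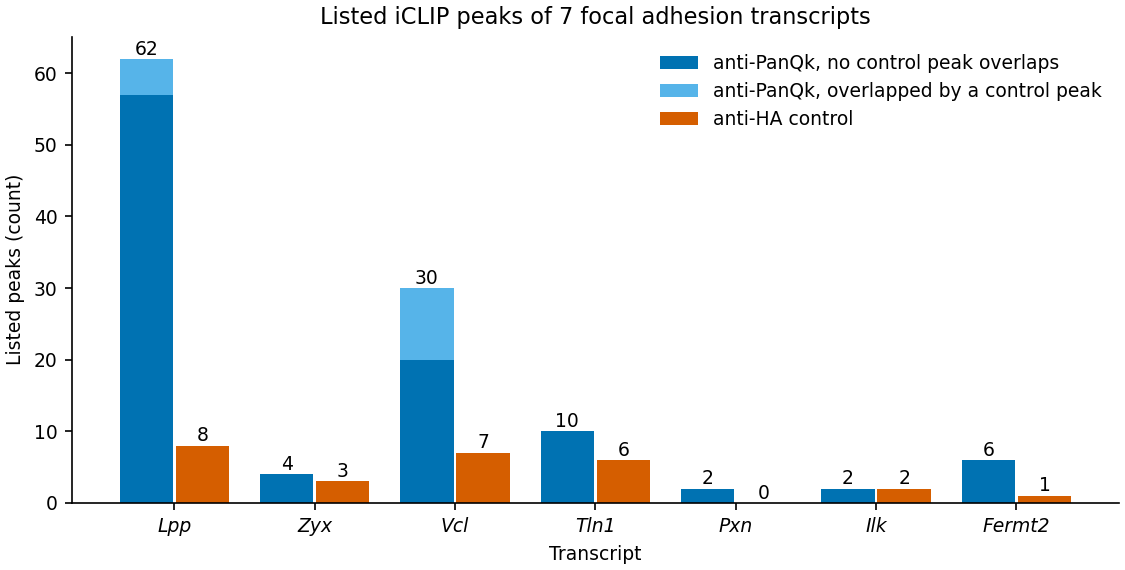
Number of listed peaks (y axis, count) for each of the 7 transcripts (x axis), with anti-PanQk peaks on the left of each pair, split into control-free and overlapped ones, and anti-HA control peaks on the right, from 1 library each. Lpp (62 and 8 peaks) and Vcl (30 and 7) stand above the other members, which have at most 10 anti-PanQk peaks.

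Across the 7 members, 101 of 116 anti-PanQk peaks were control-free (87.1%, exact 95% interval 79.6 to 92.6), beside the 86.0% of the whole list. The share therefore lay at the background. The overlapped peaks were confined, among the 7 members, to Lpp (5 of 62) and Vcl (10 of 30). In the other 5 members all 24 peaks were control-free, and a gene ID with every anti-PanQk peak control-free is common (83.0% of IDs). Each of the 7 members had at least 1 control-free peak, as did 92.8% of IDs. Of the 27 control peaks on the members, 8 were overlapped by an anti-PanQk peak (29.6%, 13.8 to 50.2), which leaves 19 not overlapped, beside 70.5% not overlapped in the whole control list.

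The Lpp peaks of the 2 lists (ENSMUSG00000033306) were spread over 594 kb (mm9 chromosome 16, 24398125 to 24992242), a stretch that begins at a control peak. Most of the anti-PanQk peaks sat at its downstream end. A run of 49 peaks with gaps of at most 2000 nt between neighbours filled the last 12.7 kb (24979547 to 24992242). This block took up 2.14% of the stretch and held 329 of the 379 anti-PanQk reads (86.8%). Peaks covered 21.3% of the block, with a median gap of 136.5 nt, and they held 3 to 34 reads with a median of 5.

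The other 13 Lpp peaks were scattered upstream of the block, from 24433331 to 24975552. They lay far apart, with a median gap of 41.5 kb between neighbours, and each held 3 to 7 reads. They were also narrow: their median width was 10 nt (quartiles 9 and 10), beside 46 nt (36 and 70) in the block. A width of at most 11 nt was found for 11 of the 13 scattered peaks and for 7 of the 49 block peaks. In the whole anti-PanQk list, peaks with no neighbour of the same ID within 2000 nt had a median width of 30 nt, and 35.0% of them were that narrow. Peaks in runs of 2 to 9 had a median width of 41 nt, and 18.4% of them were that narrow. Peaks in runs of 10 or more had a median width of 25 nt, and 35.4% of them were that narrow. In the whole list narrow peaks were thus about as frequent in runs of 10 or more as among lone peaks, and less frequent in runs of 2 to 9.

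The 5 Lpp peaks with most reads were all in the block. The strongest held 34 reads at 24982012 to 24982097, where the control list had an overlapping peak of 5 reads. A peak of 27 reads at 24983968 to 24984156 was control-free, 86 nt from the nearest control peak. Another of 27 reads at 24991887 to 24991988, close to the downstream end, was also control-free, with 3403 nt to the nearest control peak. These were followed by 17 reads at 24986259 to 24986318, over a control peak of 4 reads, and 13 reads at 24981046 to 24981142, which was control-free. The first listed anti-PanQk peak held 4 reads (24433331 to 24433338) and the last held 3 (24992234 to 24992242). The strong peaks were thus spread along the block and not gathered at 1 site.

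Most Lpp peaks were weak, as in the list as a whole. Of the 62, 45 held 3 to 5 reads (72.6%), beside 68.6% of the whole list. A number of 3 reads, the smallest in either list, was found for 20 (32.3%), beside 43.6% of the whole list, and the median of 4 reads was the same in both. A deposited p-value of at most 1e-06 was given to 8 of the 62 (12.9%), beside 19.4% of the whole anti-PanQk list, and these 8 held 150 of the 379 reads. In the names of listed Lpp peaks, the number before the reads ran up to 100 in the anti-PanQk list and 15 in the control list. The lists held 62 and 8 Lpp peaks.

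**Figure D2:**
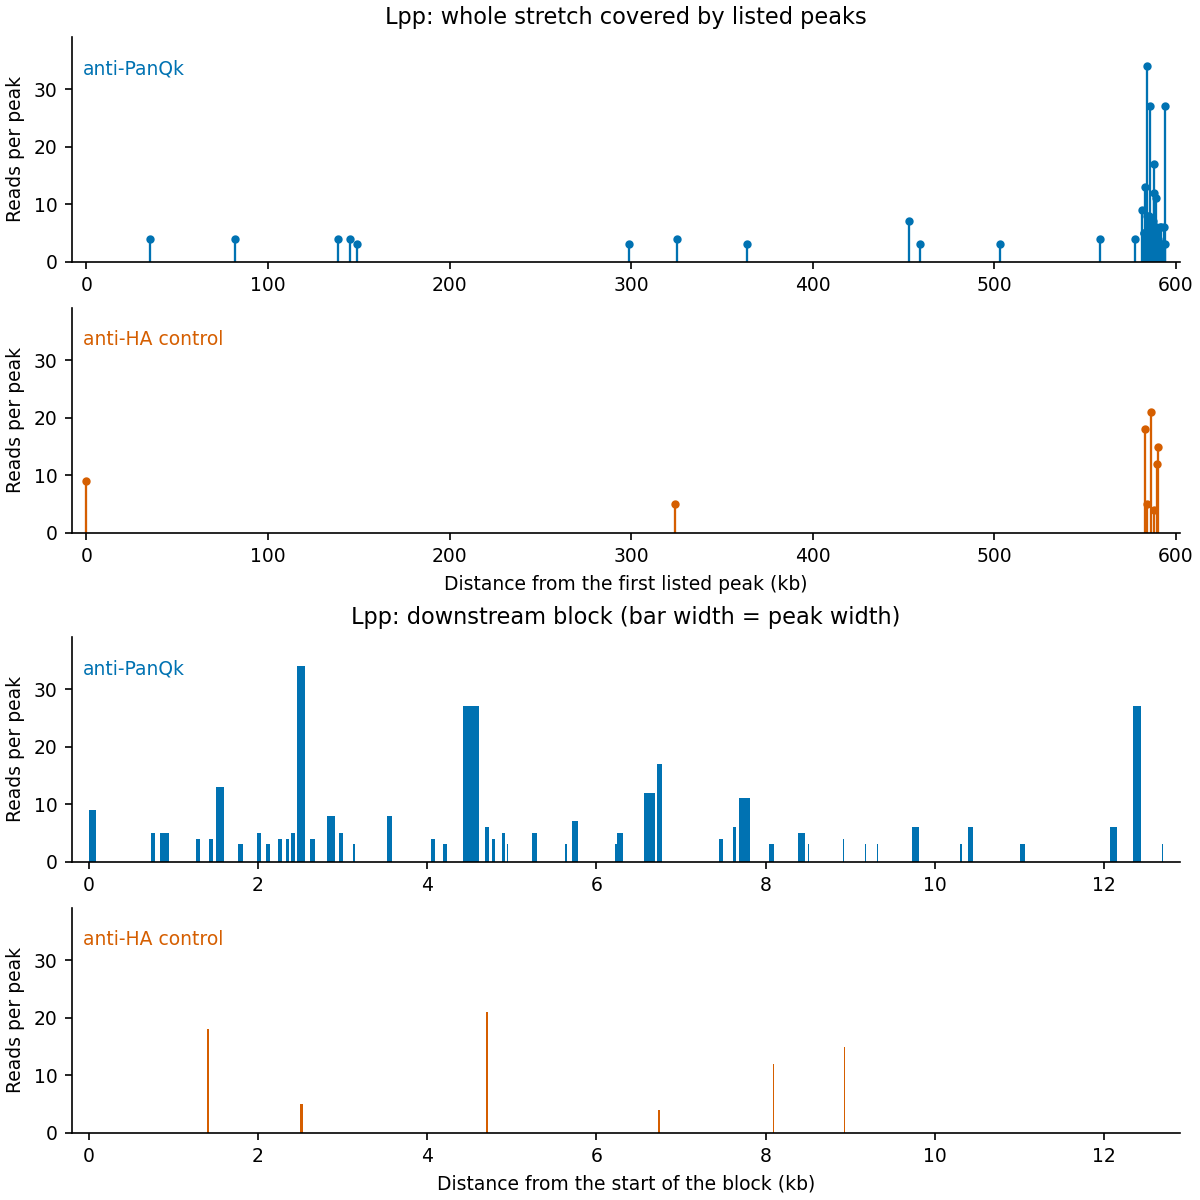
Reads per listed peak (y axis, reads as listed, unscaled) along Lpp in 1 anti-PanQk and 1 anti-HA control library. The upper 2 panels give distance from the first listed peak (kb) and the lower 2 distance from the start of the downstream block (kb), where bar width is peak width. In the block lie 49 of the 62 peaks of the anti-PanQk library and 6 of the 8 of the control library, and the 34-read and both 27-read anti-PanQk peaks lie in it.

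Control peaks on Lpp lay in the block as well. At the 5 overlapping sites the anti-PanQk peak held 34, 17, 6, 4 and 3 reads, against 5, 4, 21, 18 and 12 reads in the control peak. The anti-PanQk peak was thus the stronger at 2 of the 5 sites and the weaker at the others. In the whole list it was the stronger for 44.4% of overlapped anti-PanQk peaks. The control peaks of 12 to 21 reads were narrow, 11 to 35 nt wide, beside 46 to 50 nt for the anti-PanQk peaks over them. A further control peak of 15 reads and 5 nt (24988479 to 24988483) lay 7 nt from an anti-PanQk peak of 4 reads (24988462 to 24988471). The other 2 control peaks lay upstream, with 9 reads at 24398125 to 24398137 and 5 reads at 24722407 to 24722413. Of the 57 control-free Lpp peaks, 49 were more than 100 nt from any control peak. The same share was not computed for the whole list, so this count has no background beside it.

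Vcl (ENSMUSG00000021823) had fewer anti-PanQk peaks than Lpp but almost as many reads in them, 344 against 379 for Lpp. Its peaks in the 2 lists spanned 99.9 kb (chromosome 14, 21752978 to 21852885), a stretch that begins at a control peak. Of the 30 anti-PanQk peaks, 24 were packed into the last 1.75 kb (21851140 to 21852885). This block held 326 of the 344 reads (94.8%). Peaks covered 53.0% of it, so the Vcl block was denser than that of Lpp, with 13.7 peaks per kb against 3.86 per kb in the Lpp block. The median peak in the Vcl block held 9 reads, and 14 of the 30 Vcl peaks had a deposited p-value of at most 1e-06 (whole list 19.4%).

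Within the block, 8 peaks followed each other with no gap between 21851420 and 21851639. From upstream to downstream they held 4, 22, 19, 76, 6, 10, 21 and 8 reads, which is 166 of the 344 Vcl reads (48.3%) in 220 nt. Of all anti-PanQk peaks, 14.8% abut another peak of the same ID, and listed entries therefore do not count separate sites. The peak of 76 reads (21851508 to 21851561) was the strongest of the 116 member peaks. A control peak of 11 reads and 111 nt (21851499 to 21851609) overlapped 6 of the 8.

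A second group of Vcl peaks lay at the downstream end of the block. Peaks of 16, 28, 9 and 13 reads stood between 21852471 and 21852885, all control-free and 575 to 916 nt from the nearest control peak. The peak of 28 reads (21852634 to 21852698) was the second strongest of Vcl. These peaks, unlike the group around the 76-read peak, had no control peak beside them.

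**Figure D3:**
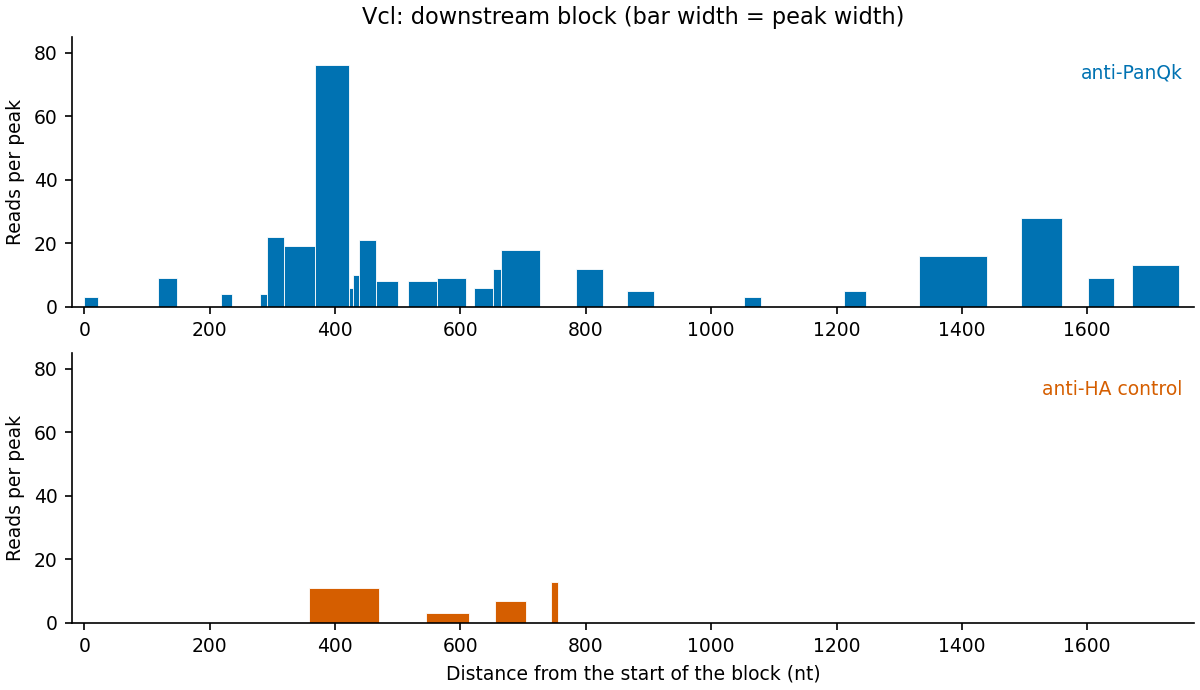
Reads per listed peak (y axis, reads as listed, unscaled) along the downstream block of Vcl (x axis, nt from the start of the block), with the anti-PanQk library above the anti-HA control library and bar width equal to peak width. The 76-read peak stands over a control peak of 11 reads, and no control peak lies under the 28-read peak near the downstream end.

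By listed peaks, overlap with the control was more frequent in Vcl than in Lpp. Of its 30 anti-PanQk peaks 20 were control-free (66.7%, exact 95% interval 47.2 to 82.7), beside 91.9% (82.2 to 97.3) in Lpp. Lpp was chosen by its number of control-free peaks, so its high share is in part a result of that choice. Peaks of 1 transcript also share a library and neighbouring RNA and are not independent, so the difference was not tested. The order turned when peaks of a transcript within 50 nt were merged, since the 10 overlapped Vcl peaks then became 1: 1 of 14 merged peaks was overlapped in Vcl (7.14%) and 5 of 51 in Lpp (9.80%). The control peaks involved held 11, 3 and 7 reads. The anti-PanQk peak was the stronger in 7 of the 10 overlaps, beside 44.4% of overlapped peaks in the whole list. The weaker ones, of 6, 10 and 8 reads, were pieces of the gapless run over the 11-read control peak. Pieces of 19, 76 and 21 reads lay over the same control peak. The remaining control peak of the block, of 13 reads and 11 nt (21851885 to 21851895), lay 18 nt from the nearest anti-PanQk peak. The 3 control peaks upstream of the block held 4, 18 and 7 reads and overlapped no anti-PanQk peak.

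Upstream of its block Vcl resembled Lpp. The 6 scattered anti-PanQk peaks, from 21756790 to 21847221, all held 3 reads, and 5 of them were at most 11 nt wide, with a median of 4 nt. The block peaks of Vcl had a median width of 35 nt. In both transcripts, then, mostly wide peaks of up to 34 reads in Lpp and up to 76 reads in Vcl stood in the downstream block, and weak and mostly narrow peaks stood along the rest of the stretch.

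**Figure D4:**
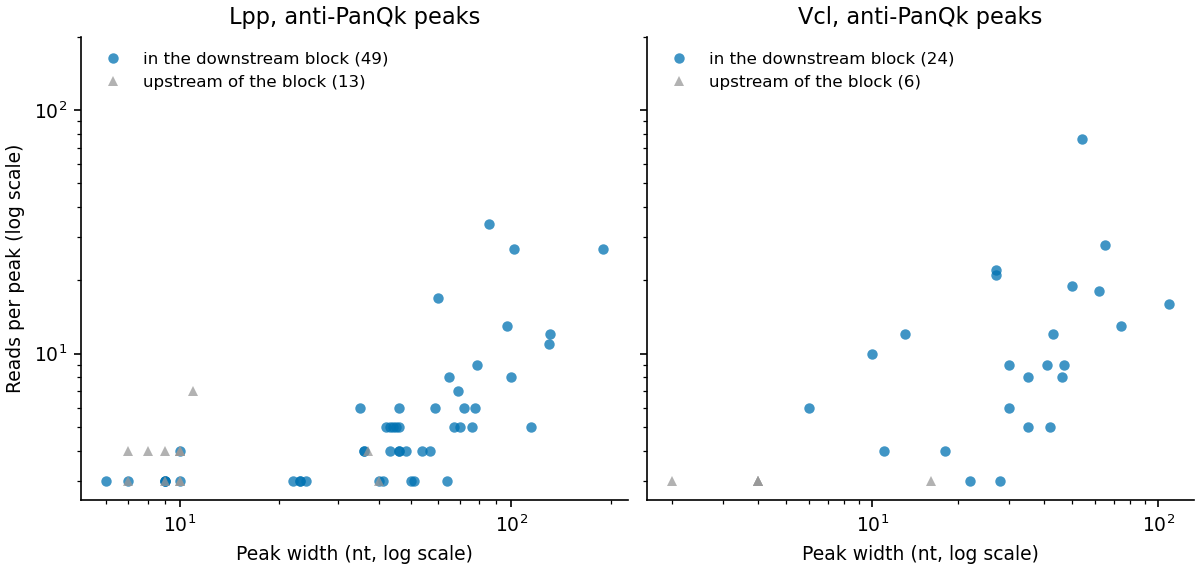
Width (x axis, nt, log scale) and reads (y axis, reads as listed, log scale) of each anti-PanQk peak of Lpp and Vcl, from 1 library, with circles for peaks in the downstream block and triangles for peaks upstream of it. The upstream peaks sit at 3 to 7 reads, and 11 of 13 in Lpp and 5 of 6 in Vcl are at most 11 nt wide.

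The position of the peaks can be set against other transcripts with many peaks. Among 324 gene IDs with at least 10 anti-PanQk peaks over at least 1000 nt, a median of 53.4% of the peaks (quartiles 26.6 and 72.8) lay in the downstream 10% of the stretch that their listed peaks cover. The share was 82.3% in Lpp (51 of 62) and 86.7% in Vcl (26 of 30), both above the upper quartile. In Tln1 it was 50.0% (5 of 10). The downstream 10% grows with the stretch, which was 594 kb in Lpp and 99.9 kb in Vcl. The 324 IDs were not matched to them for length. The share of peaks in the densest block, by contrast, was within the quartiles of these IDs (50.0 and 90.9, median 73.5%) in all 3: 79.0% in Lpp, 80.0% in Vcl and 60.0% in Tln1. An ID could be admitted with a stretch shorter than the gap that ends a block, and such an ID forms a single block by construction. The densest block was also taken wherever it lay in the stretch. These shares therefore cannot show how common a small downstream block like those of Lpp and Vcl is. The control-free share over the same IDs had a median of 92.6% (quartiles 76.2 and 100), so Lpp lay near the median and Vcl below the lower quartile. By the distance between log2 counts of anti-PanQk, control and control-free peaks in the 2 lists, the gene IDs most like Lpp were ENSMUSG00000062078 on chromosome 17 (59, 6 and 55 peaks, distance 0.37) and ENSMUSG00000058013 on chromosome 5 (60, 6 and 54 peaks, distance 0.37).

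The integrin activators Tln1 and Fermt2 had their strongest anti-PanQk peaks at the downstream end, with shares of peaks in the downstream 10% (5 of 10 and 3 of 6) that for Tln1 lay below the median of 53.4% for IDs with at least 10 peaks. Fermt2 has too few peaks for that comparison. Tln1 (ENSMUSG00000028465, minus strand of chromosome 4, 43544432 to 43575041) carried 10 anti-PanQk peaks, with 47 reads in all. Its strongest peaks, of 8 reads (43544432 to 43544490) and 9 reads (43544555 to 43544675), were the last in the direction of transcription, followed upstream by peaks of 5, 4, 4 and 4 reads. These 6 peaks lay within 3.19 kb and held 34 of the 47 reads. The other 4 held 3, 3, 4 and 3 reads. Only the peak of 9 reads had a deposited p-value of at most 1e-06 among those of Tln1, and none of the 10 was overlapped by a control peak.

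Control peaks on Tln1 were stronger and lay elsewhere. They held 4, 15, 16, 21, 12 and 18 reads, and 5 of the 6 lay upstream of the anti-PanQk group. The reads in listed peaks therefore added up to 47 in the anti-PanQk list (418 nt covered, 4.70 per peak) and 86 in the control list (177 nt, 14.3 per peak). The smallest distance between an anti-PanQk and a control peak was 212 nt. In 28.4% of all IDs in the anti-PanQk list the control peaks held more reads, so this order is common. The 52.4% of IDs with no control peak cannot show it.

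Fermt2 (ENSMUSG00000037712, minus strand of chromosome 14, 46078921 to 46130974) carried 6 peaks of the anti-PanQk list beside 1 of the control list. At its downstream end, peaks of 3, 5 and 8 reads stood within 492 nt (46078921 to 46079412) and held 16 of the 26 reads. The 8-read peak (46079361 to 46079412) was the strongest of the transcript. The other 3, of 4, 3 and 3 reads, were at least 13738 nt apart. The only control peak, of 13 reads (46095613 to 46095631), lay 2013 nt from the nearest anti-PanQk peak. None of the 6 reached a deposited p-value of 1e-06, beside 19.4% of the whole anti-PanQk list that did.

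Zyx (ENSMUSG00000029860), which belongs to the same protein family as Lpp, had far fewer peaks. Lpp, however, was chosen by its number of control-free peaks. Zyx also had a far shorter stretch of listed peaks, 7.02 kb beside 594 kb in Lpp. On the plus strand of chromosome 6 (42301691 to 42308710) it had 4 anti-PanQk peaks in groups of 2, with 5 and 3 reads at the upstream end (42301691 to 42301735 and 42301795 to 42301826) and 4 and 3 reads near the downstream end (42308049 to 42308092 and 42308121 to 42308154). The control peaks held 3, 14 and 13 reads, and both stronger ones lay within 765 nt of the downstream end. That end is set by the 13-read control peak itself. The nearest control peak was 103 nt from an anti-PanQk peak. In sum the anti-PanQk peaks held 15 reads (155 nt covered, 3.75 per peak) and the control peaks 30 (27 nt, 10.0 per peak).

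The adaptors Ilk and Pxn were at the limit of what the list shows. Ilk (ENSMUSG00000030890, plus strand of chromosome 7, 112888808 to 112891334) carried 2 anti-PanQk peaks of 3 reads each, 7 and 5 nt wide, and 2 control peaks of 5 and 3 reads. Its downstream anti-PanQk peak (112890819 to 112890823) lay 22 nt from the 5-read control peak. Pxn (plus strand of chromosome 5) had 1 peak of 3 reads at 115970017 to 115970023 and 1 of 4 reads at 116005480 to 116005488, 7 and 9 nt wide. It was the only member with no control peak, which holds for 52.4% of IDs in the anti-PanQk list. Since 43.6% of all anti-PanQk peaks hold 3 reads, the peaks of Ilk and Pxn lie in or next to the weakest class of the list.

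**Figure D5:**
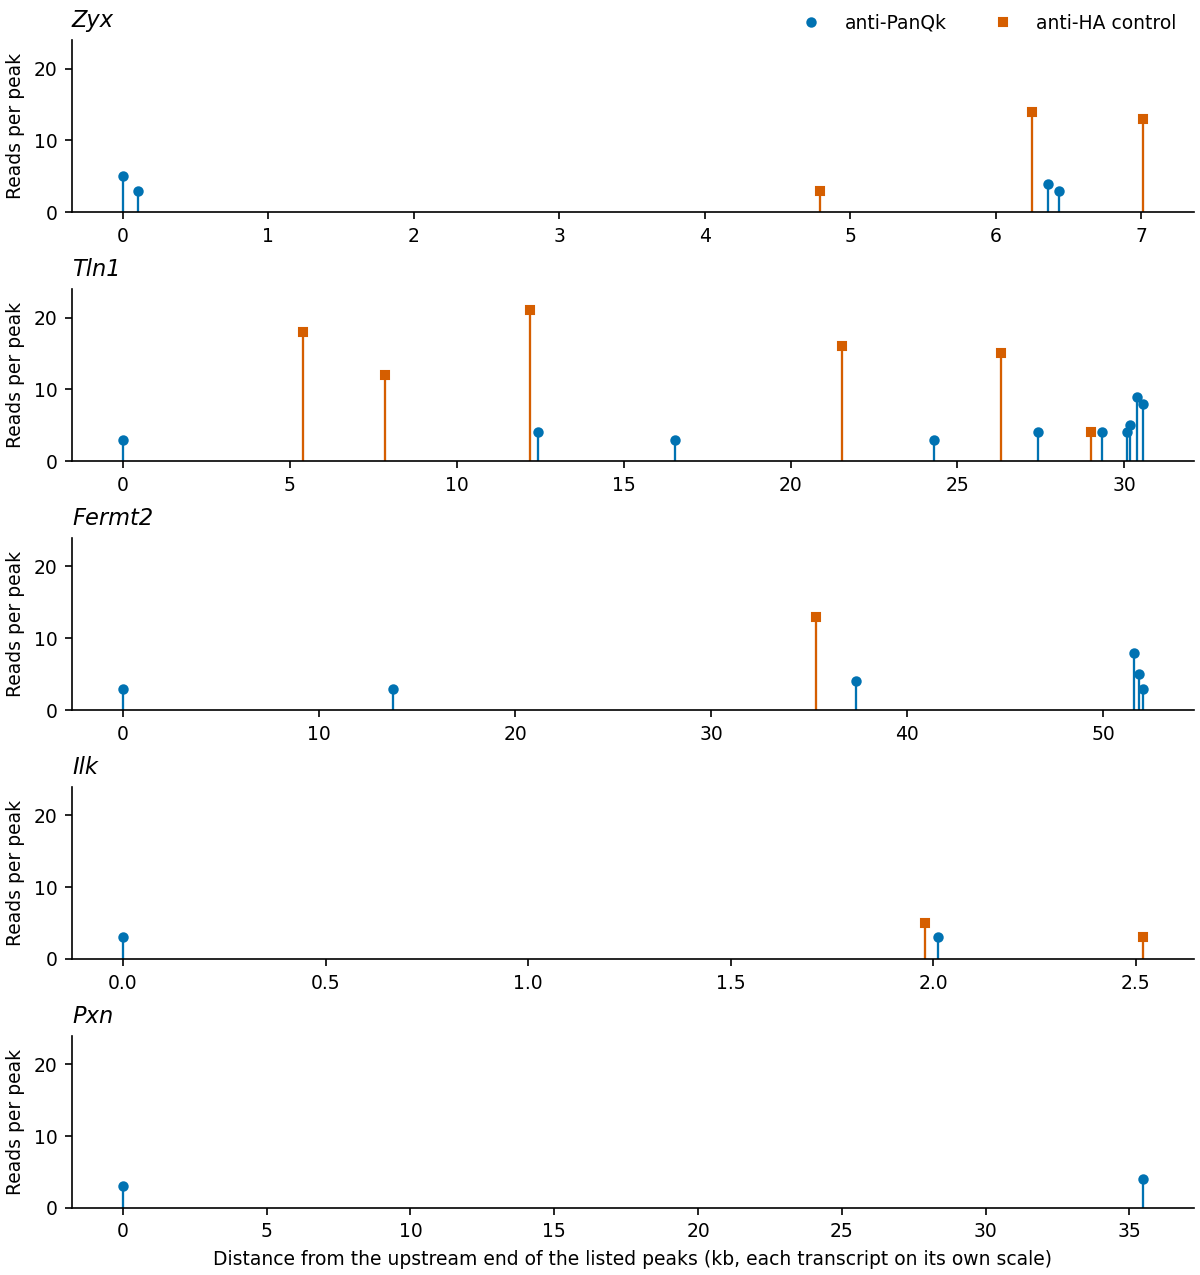
Reads per listed peak (y axis, reads as listed, unscaled) along Zyx, Tln1, Fermt2, Ilk and Pxn (x axis, kb from the upstream end of the listed peaks in the direction of transcription, a scale of its own for each transcript), with circles for the anti-PanQk and squares for the anti-HA control library. Tln1 and Fermt2 have their strongest anti-PanQk peaks, of 9 and 8 reads, at the downstream end, and the control peaks of Tln1 reach 21 reads further upstream.

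Reads in listed peaks thus split the members. They were higher in the anti-PanQk than in the control list for Lpp (379 and 89, over 2888 and 157 nt, 6.11 and 11.1 per peak), Vcl (344 and 63, over 959 and 292 nt, 11.5 and 9.00 per peak), Fermt2 (26 and 13, over 254 and 19 nt, 4.33 and 13.0 per peak) and Pxn (7 and 0). They were lower for Tln1, Zyx and Ilk (6 and 8, over 12 and 19 nt), 3 of the 7 beside 28.4% of all IDs. Of all IDs, 52.4% have no control peak and cannot show this order, as Pxn cannot among the members. The share over IDs with a control peak was not computed, so the members cannot be called unusual here. Each sum covers called peaks only and moves with how much was called in each library. By mean reads per peak Vcl alone among the 6 members with peaks in both lists was higher in the anti-PanQk list. Control peaks were the stronger in the whole lists too, with a median of 15 reads beside 4 in the anti-PanQk list. How many of all IDs go the way of Vcl was not computed, so this count has no background beside it. How much of each transcript was present in the cells was not measured, so a low count of peaks cannot be told apart from a low level of the transcript.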

How the data were processed

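Both peak lists were made with CLIPper from a library each, on mm9, per the file headers. Bowtie2 and TopHat appear in the submitters' processing notes, without versions. The library name in each track line gave its sample. P-values of peaks are those the authors deposited, and the number that ends each deposited peak name was read as the reads in the peak. Whether duplicates were collapsed by the molecular identifier that the labels describe is not stated there.

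Symbols came with the list of members. The reference table pairs no ID with a symbol but places all 7 symbols on the chromosome of their peaks, so the other focal adhesion genes and myoblast markers listed by symbol were not looked up.

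Overlap needed 1 shared nt on the same strand, was counted with Python 3.11.15, pandas 2.3.3 and numpy 2.4.6, and was tested on simulated data. Exact Clopper-Pearson 95% intervals used scipy 1.17.1. A locus spans all peaks of an ID in either list, with 1-based coordinates. A block ends at a gap of over 2000 nt and needs 3 peaks, a choice made after seeing the data. All members are named. Of members with up to 10 anti-PanQk peaks all may be given, and of longer ones the 5 strongest, the first and last, the overlapped ones and the control peaks, with the other Vcl block peaks added after their values were seen. Members, lists and rules were chosen with earlier results of these data known.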

Additional observations from a re-analysis of the deposited data

How the results depend on the processing

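No paired analysis was possible because each of the 2 lists compared comes from 1 library, so none could be left out either. The alternatives were fewer admitted peaks, other overlap rules and merging. With p at most 1e-06 in both lists, control-free peaks numbered 8 in Lpp (57 in the main setting) and 11 in the other members (44), Lpp had 8 peaks in the downstream 10% of the locus (51) and the members' median was 13 reads (4). The count of 8 includes the Lpp peaks of 34 and 17 reads, whose weaker control peaks are then dropped. With equal list lengths the same values were 19, 15, 21 and 8, and the overlapped share of member peaks was 27.7% (12.9% in the main setting); fewer peaks were admitted in both settings. The overlapped share was 24.1% with control peaks within 100 nt counted, 6.82% after merging peaks within 50 nt and 5.17% when control peaks of 10 to 26 reads were removed. The first and the last follow from a wider and a smaller set of control contacts. The whole-list share was not recomputed in any alternative setting, equal list lengths included. The members' shares in those settings therefore have no background beside them. On merging, the 10 overlapped Vcl peaks became 1, which left 6 of 88 member peaks overlapped and turned the order of Vcl (7.14%) and Lpp (9.80%). Merging left 46 control-free peaks in Lpp and 13 in Vcl (20 in the main setting). With p at most 1e-06 Vcl had 10 control-free peaks and Zyx, Pxn, Ilk and Fermt2 none. Those without one had only 2 to 6 anti-PanQk peaks each, and 19.4% of all anti-PanQk peaks reach that p-value. The share of all IDs without such a peak was not computed. Ending blocks at gaps of 1000 nt, an alternative added after seeing the data, gave 46 peaks for Lpp (49) and 24 for Vcl (24). Unknown depth and the minimum of 3 reads limit what can be said of Ilk, Pxn and Zyx.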
